A study of Homo sapiens with 6 samples.

Results

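The NRF2 antioxidant response was followed through 10 genes, NFE2L2, KEAP1, SQSTM1, HMOX1, NQO1, GCLC, GCLM, TXN, TXNRD1 and SRXN1, which were taken by their symbols from a table of read counts and not by their values. Earlier results of these data were known when the genes were chosen. All 10 were among the 23355 entries of the table that were kept, and all 10 passed the filter on low counts that left 14053 genes for testing. The counts came from HFL-1 cells, an established line of human fetal lung fibroblasts, used here to ask which genes depend on TAZ, a transcriptional coactivator encoded by WWTR1. The cells received siNTC, an siRNA without a target, or 1 of 2 siRNAs against TAZ, siTAZ #1 or siTAZ #2, through Lipofectamine RNAiMAX, and total RNA was extracted at 48 h and sequenced on the Ion Torrent platform. Each group had 2 libraries labelled as replicates, giving 6 libraries in all. The 3 groups shared the line, the transfection reagent and the time, and the labels name no oxidant or NRF2 activator for any of them. A single cell line was used, and the effect of each siRNA on genes other than its target cannot be told apart from the effect of losing TAZ within 1 group.

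NRF2, the product of NFE2L2, is a transcription factor that is held at a low level by KEAP1, an adaptor that delivers it to a CUL3 ubiquitin ligase for degradation. Oxidants and electrophiles modify cysteines of KEAP1, NRF2 then accumulates, pairs with a small MAF protein and binds antioxidant response elements near genes for quinone reduction, glutathione synthesis, the thioredoxin system and heme breakdown. SQSTM1 encodes p62, an autophagy receptor that binds KEAP1 and is itself a target gene of NRF2. Because NRF2 is controlled mainly through protein stability, the level of its mRNA and its activity are different quantities, and the libraries measure mRNA only.

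Counts per library summed to between 15648055 and 32078188. Levels are given as CPM, the counts of a gene per 1000000 counts after TMM normalization, which scales libraries to a common composition. WWTR1 fell to 20.8% of its siNTC level with siTAZ #1 and to 33.9% with siTAZ #2, and both changes passed edgeR's quasi-likelihood test (FDR = 0.000617 and FDR = 0.000681). One library stood apart. In replicate 2 of siTAZ #1, counts were nearly missing from RANGAP1 on chromosome 22 through X and Y, so that these genes held 0.246% of its counts against 3.58% to 3.74% in the other libraries. None of the 10 genes lies in that stretch. HMOX1, which is on chromosome 22 before it, had nearly equal CPM in both siTAZ #1 libraries. The stretch nevertheless entered the spread that all genes share in the fit, and counts are therefore also given without its genes. All 12 fibroblast markers were at 1 CPM or more in every library, with a summed level of 43961 to 44044 CPM with siNTC, 33232 to 35539 with siTAZ #1 and 33934 to 35736 with siTAZ #2. Of the 9 epithelial, 6 endothelial and 6 leukocyte markers, MUC1, TEK and CD68 were the highest of their lists, with 3.93 to 7.68, 24.0 to 44.8 and 37.8 to 75.4 CPM, and EPCAM reached 2.38 CPM. Summed endothelial and leukocyte levels were lowest with siTAZ #2, at 26.7 to 31.4 and 38.3 to 49.0 CPM. The part of these marker levels in the results was not tested, and in RNA from whole cultures fewer cells of a type and less RNA per cell cannot be told apart.

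The promoter windows of RefSeq, 250 bases before to 50 bases after each start site on GRCh38.p14, were searched on both strands for the core of the antioxidant response element, TGACNNNGC, in which N is any base. The table held 14 windows for 9 of the 10 genes, and each was placed on GRCh37 by an exact match. HMOX1 had no entry. The core was present in 4 of the 14 windows, those of GCLM, KEAP1 and TXNRD1, and in 13.35% of all 35116 windows of the table. The related AP-1 element TGANTCA, whose letters did not overlap any of these matches, was in 0 of the 14 windows and in 7.709% of all windows. The 250 bases before the start site of those 4 windows are given in the direction of the gene, with letters matching the core in capitals. Binding of NRF2 to these matches was not measured.

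GCLM, chr1:94374987-94375236 (- strand): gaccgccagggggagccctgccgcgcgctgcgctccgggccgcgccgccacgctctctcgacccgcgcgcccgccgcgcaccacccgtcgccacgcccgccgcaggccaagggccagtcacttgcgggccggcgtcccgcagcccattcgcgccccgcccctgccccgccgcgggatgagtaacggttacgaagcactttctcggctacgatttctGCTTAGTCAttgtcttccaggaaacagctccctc

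KEAP1, chr19:10613448-10613697 (- strand): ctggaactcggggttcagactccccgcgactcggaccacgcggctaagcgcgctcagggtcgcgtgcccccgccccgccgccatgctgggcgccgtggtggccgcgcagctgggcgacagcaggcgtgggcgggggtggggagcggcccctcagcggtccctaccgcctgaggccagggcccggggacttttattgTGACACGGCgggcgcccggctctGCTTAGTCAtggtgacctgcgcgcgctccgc

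TXNRD1, chr12:104609307-104609556 (+ strand): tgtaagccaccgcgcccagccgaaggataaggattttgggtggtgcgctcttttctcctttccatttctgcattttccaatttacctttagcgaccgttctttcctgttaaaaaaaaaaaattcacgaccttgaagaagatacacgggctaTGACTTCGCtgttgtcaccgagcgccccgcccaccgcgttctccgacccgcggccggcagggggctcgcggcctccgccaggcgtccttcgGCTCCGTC

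TXNRD1, chr12:104680560-104680809 (+ strand): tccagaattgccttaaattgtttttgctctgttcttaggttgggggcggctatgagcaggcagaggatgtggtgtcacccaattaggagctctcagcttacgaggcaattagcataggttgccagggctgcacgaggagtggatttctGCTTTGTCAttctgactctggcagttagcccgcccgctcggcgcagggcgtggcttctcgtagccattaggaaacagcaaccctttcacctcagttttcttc

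Positions are those of the first base of a match on the gene's strand, counted back from the start site. The GCLM core lies at −34 and reads on the opposite strand. KEAP1 carries 2 cores in its second window, at −54 and −31, of which the nearer reads on the opposite strand and has the same 9 letters as that of GCLM. The windows of TXNRD1 belong to alternative start sites, with cores at −99 and −8 in the first and at −102 in the second. The core at −8 ends 1 base beyond the 250 bases given above. No core was found in the windows of NFE2L2, NQO1, GCLC, TXN, SRXN1 or SQSTM1, which says only that these letters are absent from the windows searched.

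With siTAZ #1, 3 of the 10 genes fell, SQSTM1, HMOX1 and NQO1, against 9.78% of all genes tested. No member rose by edgeR's quasi-likelihood test, against 10.8% of all genes. At an unadjusted p under 0.05, 4 were lower and 1 higher, against 16.6% and 18.8% of all genes, and DESeq2 likewise called 4 lower and 1 higher, against 13.2% and 14.8%. The added genes were GCLC, lower, and GCLM, higher, in both cases. With siTAZ #2, 5 members fell, HMOX1, TXN, SRXN1, NQO1 and TXNRD1, against 14.4% of all genes. None rose with siTAZ #2, against 14.1% of all genes. At an unadjusted p under 0.05, and likewise by DESeq2, 5 were lower and 1 (GCLC) higher, against 20.6% and 20.8% of all genes in the former case and 18% and 17.1% in the latter. The median log2 fold change of the 10 genes was −0.15 with siTAZ #1 and −0.17 with siTAZ #2, against 0.02 and 0.01 over all genes tested. Both comparisons use the same siNTC libraries and are therefore not independent. Compared directly, 2 members were lower with siTAZ #1 than with siTAZ #2, SQSTM1 and GCLC, against 13.4% of all genes, and 3 were higher, TXN, GCLM and SRXN1, against 15.2%, or 5 in all against 28.6%.

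**Figure D1:**
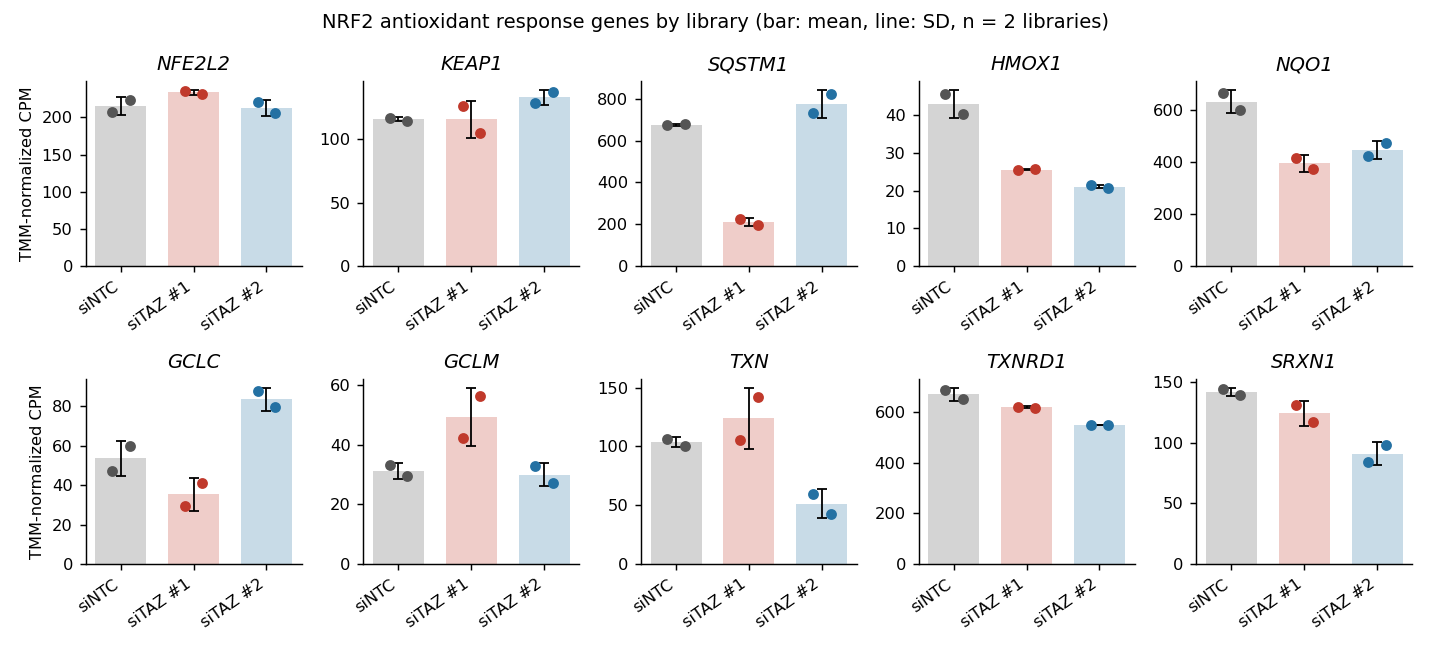
TMM-normalized CPM of each gene on a linear axis from 0, with a point for each library, a bar for the mean and a line for the SD of 2 libraries per group. SQSTM1 stood at 196.8 to 226.1 CPM in the siTAZ #1 libraries against 672.3 to 822.7 in the other 4, while NFE2L2 stayed between 205.2 and 235.7 in all 6.

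NFE2L2 itself (chr2:178083395-178257484 on GRCh37, minus strand) was at 207 and 224 CPM with siNTC, 236 and 231 with siTAZ #1, and 220 and 205 with siTAZ #2. The siTAZ #1 libraries were the highest by a small margin, and the siTAZ #2 libraries overlapped those of siNTC. Its log2 fold change was 0.12 with siTAZ #1 (95% interval −0.08 to 0.32, FDR = 0.361) and −0.02 with siTAZ #2 (−0.22 to 0.19, FDR = 0.908), and neither passed the test, nor did the difference of 0.13 between the siRNAs (FDR = 0.281). Over the 6 libraries its log2 CPM spanned 0.20, the narrowest range of the 10 genes. The genes outside the lists whose log2 CPM followed NFE2L2 most closely over the 6 libraries were RAB4A, SPCS1 and BTN2A3P, with Pearson r of 0.99 for each among 11405 genes compared, a description over few libraries and small ranges.

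KEAP1 (chr19:10596801-10614234, minus strand), the adaptor that restrains NRF2, was at 117 and 115 CPM with siNTC, 126 and 105 with siTAZ #1, and 129 and 137 with siTAZ #2. The siTAZ #1 libraries lay on either side of siNTC, and both siTAZ #2 libraries lay above it. The log2 fold change was −0.0024 with siTAZ #1 (−0.27 to 0.26, FDR = 0.990) and 0.20 with siTAZ #2 (−0.06 to 0.46, FDR = 0.219), so that no change passed the test. The siRNAs differed by −0.20 (FDR = 0.220), which passed only without replicate 1 of siTAZ #1 (−0.33, FDR = 0.0319).

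SQSTM1 (chr5:179233398-179265078, plus strand), the p62 gene, gave the largest difference among the 10. It was at 672 and 679 CPM with siNTC and at 226 and 197 with siTAZ #1, and reached 729 and 823 with siTAZ #2. Both siTAZ #1 libraries thus lay far below the 4 others, and both siTAZ #2 libraries lay above siNTC by less. The level fell to 31.3% with siTAZ #1, a log2 fold change of −1.68 (SE 0.11, FDR = 0.000884), while the change of 0.20 with siTAZ #2 did not pass the test (−0.05 to 0.45, FDR = 0.203). Between the siRNAs the log2 difference was −1.88 (SE 0.11, FDR = 0.000572), a 3.67-fold higher level with siTAZ #2. The fall with siTAZ #1 passed under all 21 alternatives, with the highest FDR at 0.0251, and was −1.58 without replicate 2 of siTAZ #1. A named pseudogene, SQSTM1P1, could share reads with SQSTM1, depending on how the authors treated reads with several matches.

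HMOX1 (chr22:35776354-35790207, plus strand), which encodes heme oxygenase 1, the enzyme that opens the heme ring to biliverdin, was lower with both siRNAs. Its levels were 45.5 and 40.2 CPM with siNTC, 25.4 and 25.6 with siTAZ #1, and 21.4 and 20.7 with siTAZ #2. All 4 siTAZ libraries lay below both siNTC libraries. HMOX1 fell to 59.5% with siTAZ #1 (log2 fold change −0.75, SE 0.12, FDR = 0.0116) and to 49.1% with siTAZ #2 (−1.02, SE 0.12, FDR = 0.00326). The difference between the siRNAs was 0.28 (−0.03 to 0.58, FDR = 0.154) and did not pass. The fall with siTAZ #2 passed under all 21 alternatives. With siTAZ #1 it no longer passed without replicate 1 of siNTC (FDR = 0.0928), without replicate 2 of siNTC (FDR = 0.0626) or when the exact test of edgeR was run on the 4 libraries compared (FDR = 0.267), although that exact test gave an FDR of 3.51e-05 once the genes from RANGAP1 to Y were left out.

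NQO1 (chr16:69740899-69760571, minus strand), a quinone reductase often used as a readout of NRF2, was likewise lower with both. It had 664 and 600 CPM with siNTC, 418 and 373 with siTAZ #1, and 422 and 472 with siTAZ #2. No siTAZ library reached the lower of the siNTC libraries. NQO1 changed by a log2 fold of −0.68 with siTAZ #1 (SE 0.10, FDR = 0.00955) and −0.50 with siTAZ #2 (SE 0.10, FDR = 0.0184), and the siRNAs differed by −0.18 (−0.43 to 0.08, FDR = 0.262). The fall with siTAZ #1 did not pass without replicate 1 or replicate 2 of siNTC (FDR = 0.0891 and FDR = 0.0629) or in the exact test (FDR = 0.173, but FDR = 5.63e-07 without the genes from RANGAP1 to Y). That with siTAZ #2 no longer passed without replicate 1 or 2 of siNTC (FDR = 0.120 and FDR = 0.0716) or without replicate 1 or 2 of siTAZ #2 (FDR = 0.102 and FDR = 0.0542).

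The glutamate-cysteine ligase subunits, which together carry out the first and rate-limiting step of glutathione synthesis, differed between the siRNAs in opposite directions. GCLC (chr6:53362139-53481768, minus strand), the catalytic subunit, was at 47.4 and 59.8 CPM with siNTC, 29.5 and 41.3 with siTAZ #1, and 87.9 and 79.5 with siTAZ #2. The 3 groups did not overlap, with siTAZ #1 lowest and siTAZ #2 highest. Neither change against siNTC passed the test, with log2 fold changes of −0.60 (−1.09 to −0.10, FDR = 0.0895) and 0.64 (0.15 to 1.13, FDR = 0.0601), but the difference between the siRNAs did, at −1.24 (SE 0.20, FDR = 0.00805). Without the genes from RANGAP1 to Y both changes against siNTC passed, with FDR = 0.00938 and FDR = 0.00479. Where 1 library of a group is left out, the other is assumed to vary like those of the other groups. The change of GCLC with siTAZ #1 was −0.86 without replicate 2 of siTAZ #1 (FDR = 0.000670) but −0.38 without replicate 1 (FDR = 0.0678), and it did not pass without replicate 1 or 2 of siNTC (FDR = 0.147 and FDR = 0.353) or in the exact test (FDR = 0.521). That with siTAZ #2 passed without replicate 1 or 2 of siTAZ #1 (FDR = 0.000419 and FDR = 0.000366) and in the exact test (FDR = 3.64e-06), but not without replicate 1 or 2 of siNTC (FDR = 0.284 and FDR = 0.120). Without replicate 1 of siTAZ #2 the difference between the siRNAs no longer did (−1.16, FDR = 0.0523).

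GCLM (chr1:94350755-94375012, minus strand), the modifier subunit that raises the affinity of the enzyme, was at 33.0 and 29.4 CPM with siNTC, 42.3 and 56.3 with siTAZ #1, and 32.8 and 27.2 with siTAZ #2. Only the siTAZ #1 libraries stood above the siNTC range. Its log2 fold change was 0.66 with siTAZ #1 (0.20 to 1.12, FDR = 0.0563) and −0.06 with siTAZ #2 (−0.51 to 0.40, FDR = 0.850). Between the siRNAs the difference of 0.72 (SE 0.19) passed with FDR = 0.0346. It was lost without replicate 1 or 2 of siNTC (FDR = 0.0724 and FDR = 0.0723), without replicate 1 or 2 of siTAZ #2 (FDR = 0.0794 and FDR = 0.170), in the exact test (FDR = 0.319), in the fit of 4 libraries (FDR = 0.0730) and with the replicate number as a block (FDR = 0.0770). The change with siTAZ #1 passed without the genes from RANGAP1 to Y (FDR = 0.00775) and without replicate 1 of siTAZ #1 (0.85, FDR = 0.000537). It did not pass without replicate 2 of siTAZ #1 (0.44, FDR = 0.0888) or in the exact test (FDR = 0.448), and was 0.42 with offsets for GC content (FDR = 0.0476).

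Per kilobase of transcript, the ratio of GCLC to GCLM was 1.85 and 2.62 in the siNTC libraries. It was 0.901 and 0.948 with siTAZ #1, and 3.46 and 3.78 with siTAZ #2. The catalytic subunit thus had more mRNA per length than the modifier in the siNTC and siTAZ #2 libraries, and slightly less in both siTAZ #1 libraries, with no overlap between the groups. With 2 libraries per group an exact permutation test cannot reach a p of 0.05, and none was run on this ratio.

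Of the thioredoxin system, TXN (chr9:113006090-113018787, minus strand), the small protein that reduces disulfides, was at 107 and 101 CPM with siNTC, 106 and 142 with siTAZ #1, and 59.9 and 42.3 with siTAZ #2. Both siTAZ #2 libraries lay below all others, and the siTAZ #1 libraries overlapped those of siNTC. TXN fell to 49.3% with siTAZ #2 (log2 fold change −1.02, SE 0.21, FDR = 0.0176), and the change of 0.26 with siTAZ #1 did not pass (−0.25 to 0.77, FDR = 0.421). The siRNAs differed by 1.28 (SE 0.21, FDR = 0.00838), which passed under all 21 alternatives. The fall with siTAZ #2 was lost without replicate 1 or 2 of siNTC (FDR = 0.0963 and FDR = 0.0835) and without replicate 2 of siTAZ #2 (−0.82, FDR = 0.0728), and without replicate 1 of siTAZ #1, with replicate 2 as its single library, the change with siTAZ #1 passed (0.46, FDR = 0.0239). TXN has 7 named pseudogenes, so that its counts are uncertain where reads matched several places.

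TXNRD1 (chr12:104609557-104744085, plus strand), the selenoprotein that returns thioredoxin to its reduced form, was at 690 and 653 CPM with siNTC, 623 and 618 with siTAZ #1, and 549 and 550 with siTAZ #2. The groups stepped down without overlap, by small amounts. The log2 fold change of −0.29 with siTAZ #2 passed (SE 0.07, FDR = 0.0334) and that of −0.11 with siTAZ #1 did not (−0.29 to 0.06, FDR = 0.317). Between the siRNAs the difference was 0.17 (−0.0048 to 0.35, FDR = 0.132). The call of TXNRD1 with siTAZ #2 was lost in 8 of the 21 alternatives. These were the fits without replicate 1 or 2 of siNTC (FDR = 0.186 and FDR = 0.118), without replicate 1 or 2 of siTAZ #2 (FDR = 0.129 and FDR = 0.117), with library totals alone (FDR = 0.0532), with offsets for GC content (−0.19, FDR = 0.0935) and with the replicate number as a block (FDR = 0.0776), alone or without the genes from RANGAP1 to Y.

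SRXN1 (chr20:627259-633844, minus strand), sulfiredoxin, which restores overoxidized peroxiredoxins, was at 145 and 140 CPM with siNTC, 132 and 117 with siTAZ #1, and 84.2 and 97.9 with siTAZ #2. Again all 4 siTAZ libraries were below siNTC, those of siTAZ #2 by more. SRXN1 fell to 64.0% with siTAZ #2 (log2 fold change −0.64, SE 0.11, FDR = 0.00922), while −0.19 with siTAZ #1 did not pass (−0.46 to 0.07, FDR = 0.257). The siRNAs differed by 0.45 (SE 0.11, FDR = 0.0283). The fall with siTAZ #2 was lost without replicate 1 or 2 of siNTC (FDR = 0.0708 and FDR = 0.0621) and without replicate 1 of siTAZ #2 (FDR = 0.0535). The difference between the siRNAs was lost without replicate 1 or 2 of siNTC (FDR = 0.0722 for both), without replicate 1 or 2 of siTAZ #2 (FDR = 0.127 and FDR = 0.0525), in the exact test (FDR = 0.423), in the fit of 4 libraries (FDR = 0.0742) and with the replicate number as a block (FDR = 0.0675).

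**Figure D2:**
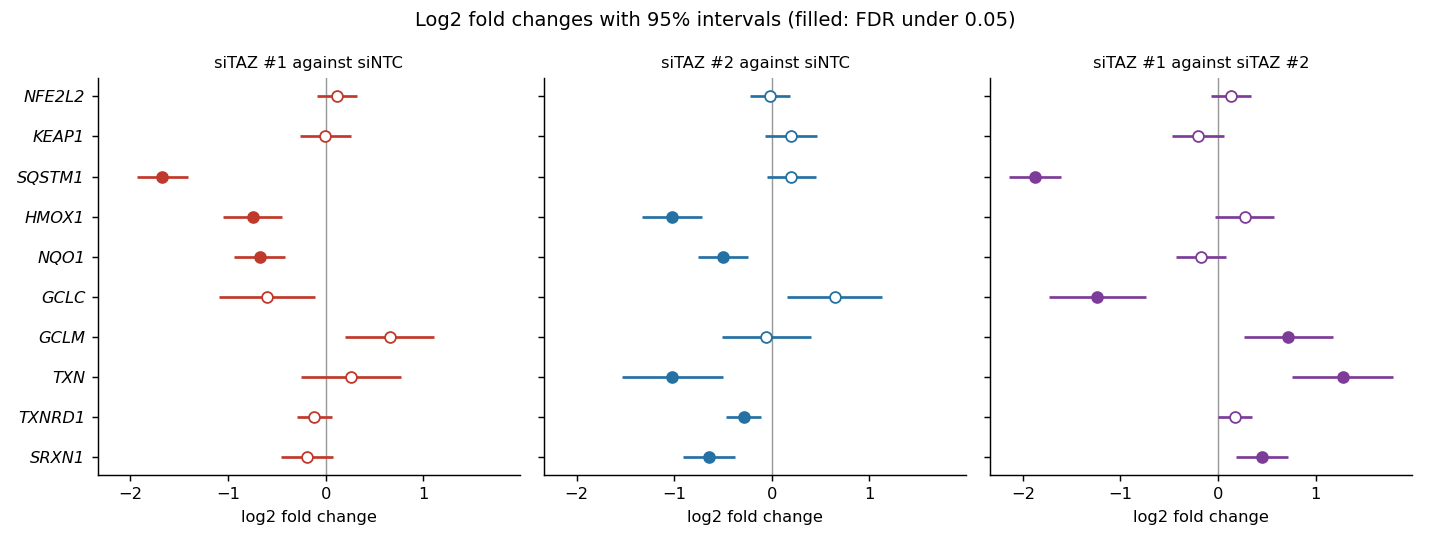
Log2 fold changes of the 10 genes with 95% intervals in the 3 comparisons, filled where the FDR was under 0.05. HMOX1 and NQO1 lie below 0 against siNTC with both siRNAs, while SQSTM1 is at −1.68 with siTAZ #1 and at 0.20 with siTAZ #2, and GCLC at −0.60 and 0.64.

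Without the genes from RANGAP1 to Y, 4 members fell and 1 rose with siTAZ #1, and 5 fell and 1 rose with siTAZ #2, the added calls being GCLC and GCLM with siTAZ #1 and GCLC with siTAZ #2. Of all genes in that fit, 14.9% fell and 15.7% rose with siTAZ #1, and 19.3% and 19.5% with siTAZ #2. Without replicate 2 of siTAZ #1, 4 fell and 0 rose with siTAZ #1, GCLC being the added one, against 11.1% and 11.7% of all genes. Without replicate 1 or replicate 2 of siNTC, SQSTM1 alone remained with siTAZ #1 and HMOX1 alone with siTAZ #2. The share of all genes that fell was then 2.06% or 1.89% with siTAZ #1 and 5.29% or 4.88% with siTAZ #2. The plot of log2 fold changes by alternative shows the values of all 10 genes.

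**Figure D3:**
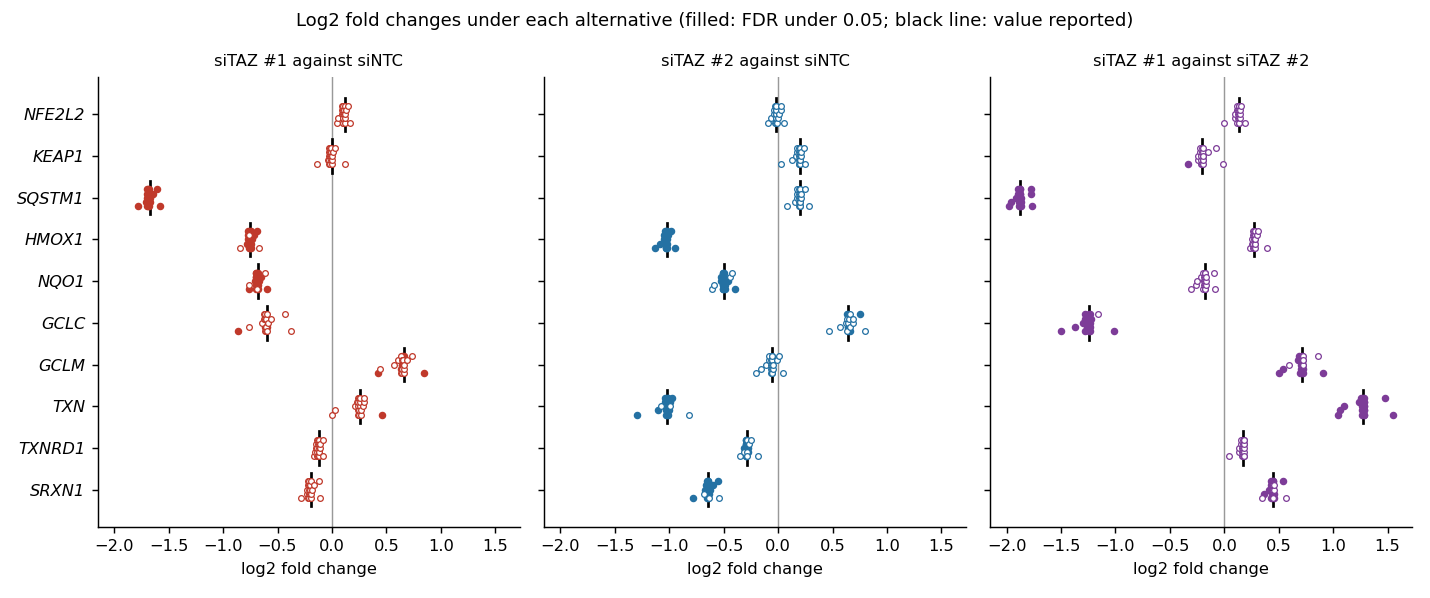
Log2 fold changes of the 10 genes under each of 21 alternatives, filled where the FDR was under 0.05, with a black line at the value reported. SQSTM1 with siTAZ #1 stayed between −1.78 and −1.58 and HMOX1 with siTAZ #2 between −1.13 and −0.95, all of them filled.

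Levels of different genes can be set side by side only per length. With siNTC, CPM per kilobase of the canonical transcript was highest for NQO1 (251 ± 17.9, SD, n = 2) and SQSTM1 (238 ± 1.61), whose libraries overlapped. TXNRD1 (174 ± 6.81), TXN (141 ± 5.73), NFE2L2 (87.9 ± 4.93), SRXN1 (56.2 ± 1.33), KEAP1 (45.2 ± 0.703), HMOX1 (27.6 ± 2.42), GCLC (14.2 ± 2.32) and GCLM (6.39 ± 0.524) followed, each apart from the next. With siTAZ #1, TXN (168 ± 35.4), TXNRD1 (161 ± 0.920) and NQO1 (157 ± 12.5) led and overlapped in turn, and SQSTM1 stood at 74.5 ± 7.31, below NFE2L2 at 95.4 ± 1.41. SRXN1 and KEAP1 overlapped in that group, as did GCLM and GCLC. With siTAZ #2, SQSTM1 led at 273 ± 23.3, followed by NQO1 at 177 ± 13.9 and TXNRD1 at 142 ± 0.138, and GCLC at 22.1 ± 1.56 was above HMOX1 at 13.6 ± 0.315. No neighbours overlapped in the siTAZ #2 group.

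Among 15 regulators and partners of NRF2, such as CUL3 and the small MAF proteins, 14 were tested and NFE2, with at most 8 counts in a library, was not. The shares of all genes to read list counts against were 9.78% lower and 10.8% higher with siTAZ #1, and 14.4% and 14.1% with siTAZ #2. Among the regulators, 1 fell and 2 rose with siTAZ #1, and with siTAZ #2, 2 rose and none fell. However, 2 fell with siTAZ #2 at an unadjusted p under 0.05 and 1 by DESeq2, against 20.6% and 18% of all genes. The medians were 0.12 and 0.24. MAFK, a small MAF partner of NRF2, was at 27.7 and 25.2 CPM with siNTC, 46.0 and 49.8 with siTAZ #1, and 65.6 and 62.6 with siTAZ #2, and rose with both (0.86, FDR = 0.00684, and 1.28, FDR = 0.00163). MAFF, another small MAF protein, rose from 19.4 and 22.2 to 46.5 and 41.3 CPM with siTAZ #1 (1.08, FDR = 0.00563) and was at 26.3 and 24.1 with siTAZ #2 (0.28, FDR = 0.188). NFE2L3, a relative of NFE2L2, rose with siTAZ #2 (0.67, FDR = 0.0308) and had 0.54 with siTAZ #1 (FDR = 0.0715). GSK3B, a kinase that marks NRF2 for a degradation route independent of KEAP1, fell with siTAZ #1 (−0.42, FDR = 0.0406) and had 0.36 with siTAZ #2 (FDR = 0.0520). The siTAZ #1 calls of MAFF, MAFK and GSK3B were lost without replicate 1 or 2 of siNTC, and their highest FDR over the alternatives was 0.0683, 0.189 and 0.593. That of GSK3B was also lost without replicate 1 of siTAZ #1 and without replicate 1 or 2 of siTAZ #2. MAFK with siTAZ #2 passed under all 21, and NFE2L3 was lost without any 1 library of siNTC or siTAZ #2 (highest FDR 0.162).

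Of 38 other target genes of NRF2, 36 were tested, GPX2 and CYP4F11 having at most 2 counts in a library. With siTAZ #1, 10 fell and 2 rose with a median of −0.29, and with siTAZ #2, 9 fell and 4 rose with a median of −0.16. The shares of all genes were 9.78% and 10.8%, and 14.4% and 14.1%. Without the genes of the list that lie between RANGAP1 and Y, the medians were −0.23 and −0.14. ME1, the malic enzyme that makes NADPH, was at 72.7 and 83.4 CPM with siNTC, 26.8 and 32.4 with siTAZ #1, and 122 and 118 with siTAZ #2. It fell with siTAZ #1 (−1.40, FDR = 0.00236) and rose with siTAZ #2 (0.62, FDR = 0.0183), and the siRNAs differed by −2.02 (FDR = 0.000795). SLC7A11, the cystine transporter that feeds glutathione synthesis, was at 174 and 180 CPM with siNTC, 181 and 219 with siTAZ #1, and 93.0 and 86.0 with siTAZ #2. It fell with siTAZ #2 (−0.98, FDR = 0.0028), had 0.18 with siTAZ #1 (FDR = 0.313), and differed between the siRNAs by 1.16 (FDR = 0.00183).

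ABCC4, an exporter of organic anions, rose with both siRNAs, from 183 and 172 CPM with siNTC to 314 and 335 with siTAZ #1 (0.87, FDR = 0.00206) and 450 and 456 with siTAZ #2 (1.35, FDR = 0.00063). ABCC1, an exporter of glutathione conjugates, fell with both, from 588 and 567 CPM to 416 and 378 (−0.54, FDR = 0.0101) and 384 and 409 (−0.54, FDR = 0.00733). UGDH, which makes UDP-glucuronate, fell by 0.38 with siTAZ #1 (FDR = 0.039) and by 0.94 with siTAZ #2 (FDR = 0.00188). PGD, of the pentose phosphate pathway, fell by 0.92 with siTAZ #1 (FDR = 0.00985) and had −0.14 with siTAZ #2 (FDR = 0.526). AKR1B1, an aldose reductase, fell by 0.52 with siTAZ #2 (FDR = 0.005) and had 0.11 with siTAZ #1 (FDR = 0.338). With siTAZ #1 the calls of ME1 and ABCC4 passed under all 21 alternatives, as did those of SLC7A11, ABCC4, UGDH and AKR1B1 with siTAZ #2. Without replicate 1 of siNTC, and likewise without replicate 2, fewer genes of the list fell with either siRNA, as was so for all genes. The calls of PGD, UGDH and ABCC1 with siTAZ #1 (highest FDR over the alternatives 0.0852, 0.590 and 0.336) and of ME1 and ABCC1 with siTAZ #2 (0.128 and 0.0669) were lost there. ME1 was also lost without replicate 1 or 2 of siTAZ #2, ABCC1 without replicate 1 of siTAZ #2, and UGDH with siTAZ #1 without replicate 1 of siTAZ #1 or either replicate of siTAZ #2.

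Among 45 other enzymes of glutathione and peroxide metabolism, 44 were tested, with 6 lower and 6 higher with siTAZ #1 and 6 lower and 7 higher with siTAZ #2, beside 9.78% and 10.8%, and 14.4% and 14.1%, of all genes. The medians were −0.13 and 0.12. PRDX3, the mitochondrial peroxiredoxin, was at 156 and 162 CPM with siNTC, 46.7 and 36.2 with siTAZ #1, and 120 and 95.9 with siTAZ #2, and fell to 26.1% with siTAZ #1 (−1.94, FDR = 0.00176) and to 67.8% with siTAZ #2 (−0.56, FDR = 0.0478). PRDX6, a peroxiredoxin with phospholipase activity, fell with both (−0.75, FDR = 0.00419, and −0.95, FDR = 0.00153). SOD2, the mitochondrial superoxide dismutase, was at 83.7 and 90.7 CPM with siNTC, 121 and 126 with siTAZ #1, and 47.1 and 46.6 with siTAZ #2. It rose with siTAZ #1 (0.50, FDR = 0.0139), fell with siTAZ #2 (−0.90, FDR = 0.00181) and differed between them by 1.40 (FDR = 0.000717).

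GPX8, a peroxidase of the endoplasmic reticulum, fell with siTAZ #2 (−1.03, FDR = 0.00361) and had 0.31 with siTAZ #1 (FDR = 0.148). GSTO1, an omega class glutathione transferase, rose with siTAZ #1 (0.77, FDR = 0.00362) and had −0.20 with siTAZ #2 (FDR = 0.138). GSTZ1, a zeta class transferase that also acts in tyrosine breakdown, fell with siTAZ #1 (−1.35, FDR = 0.00683) and had 0.60 with siTAZ #2 (FDR = 0.0558). PRDX2, a cytosolic peroxiredoxin, rose with siTAZ #2 (0.94, FDR = 0.00177) and had 0.20 with siTAZ #1 (FDR = 0.181). The siTAZ #1 call of SOD2 was lost without replicate 1 or 2 of siNTC (highest FDR over the alternatives 0.432), that of GSTZ1 without replicate 2 of siNTC (FDR = 0.0585), that of PRDX6 without replicate 1 of siNTC (FDR = 0.0538), and that of PRDX3 with siTAZ #2 without any 1 library of siNTC or siTAZ #2 (highest FDR 0.191). In the exact test on the 4 libraries compared, the siTAZ #1 call of SOD2 was lost, as were those of PRDX6 (FDR = 0.0944) and GSTO1 (FDR = 0.0972). The fall of PRDX3 with siTAZ #1 and the siTAZ #2 calls of PRDX6, SOD2, GPX8 and PRDX2 passed under all 21 alternatives.

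Because SQSTM1 is an autophagy receptor, 16 other autophagy receptors and ATG8 proteins were examined, of which 14 were tested. With siTAZ #1, 1 fell and 2 rose, and with siTAZ #2, 2 rose and none fell. At an unadjusted p under 0.05, 1 was lower with siTAZ #2, and 0 by DESeq2, against 20.6% and 18% of all genes. Of all genes, 9.78% fell and 10.8% rose with siTAZ #1, and 14.4% and 14.1% with siTAZ #2. The medians were 0.04 and 0.11. GABARAPL1, an ATG8 protein of the autophagosome membrane, fell by 0.56 with siTAZ #1 (FDR = 0.00844) and had 0.05 with siTAZ #2 (FDR = 0.673). GABARAPL2, of the same family, rose with both (0.63, FDR = 0.0369, and 0.55, FDR = 0.0444), and GABARAP rose with siTAZ #1 (0.35, FDR = 0.0417) and had 0.26 with siTAZ #2 (FDR = 0.0768). ULK1, the kinase that starts autophagy, rose with siTAZ #2 (0.66, FDR = 0.00943) and had 0.14 with siTAZ #1 (FDR = 0.408). The calls named here were lost once replicate 1 or replicate 2 of siNTC was left out, where fewer of all genes were called as well. GABARAP and GABARAPL2 with siTAZ #1 were also lost without replicate 1 or 2 of siTAZ #2, as was GABARAPL2 with siTAZ #2, and ULK1 without replicate 2 of siTAZ #2. No gene of the list came near the −1.68 of SQSTM1 with siTAZ #1, the lowest value being the −0.56 of GABARAPL1.

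**Figure D4:**
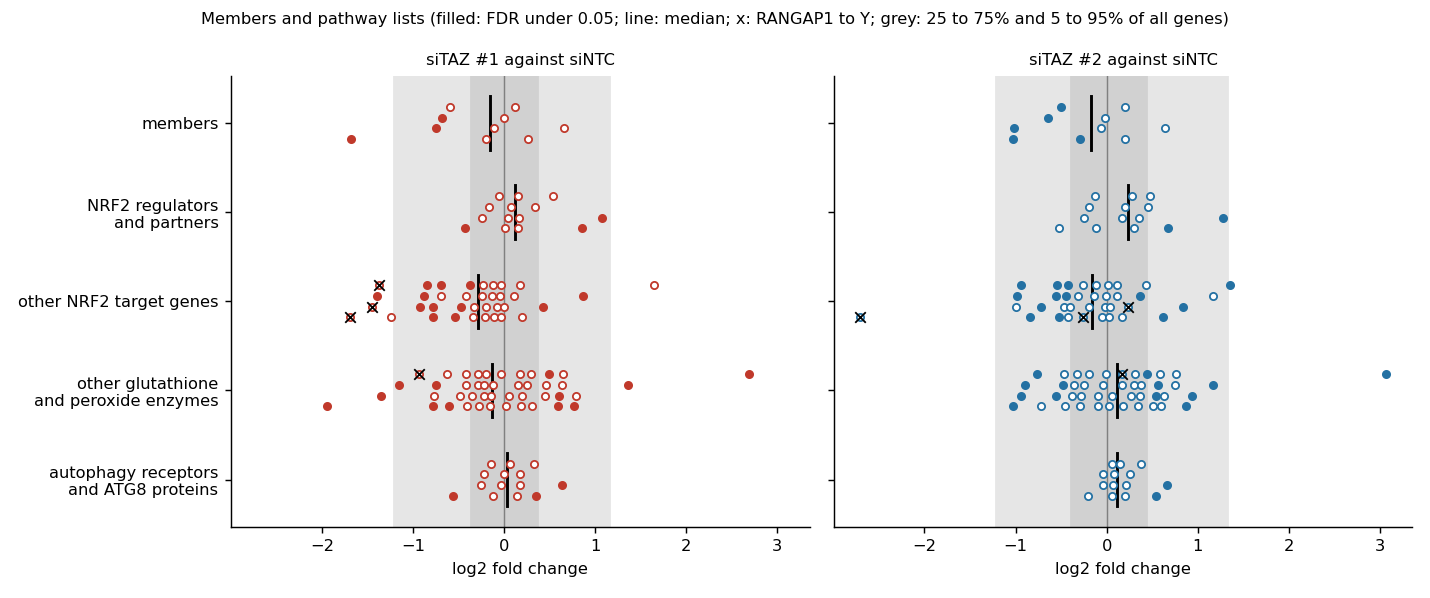
Log2 fold changes against siNTC of the 10 genes (members) and of each pathway list, filled where the FDR was under 0.05, with the median as a black line, percentiles 25 to 75 and 5 to 95 of all genes tested in grey, and a cross on genes between RANGAP1 and Y. The medians of the other NRF2 target genes, −0.29 and −0.16, lie below those of all genes, 0.02 and 0.01, and most points fall within the band of all genes.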

How the data were processed

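The deposited table holds raw read counts per gene and library, made by the authors from Ion Torrent reads with TMAP (alignment to hg19) and HTSeq 0.6.1 (counting). Strand setting and counting mode are not given in the sources used here. The 23368 entries included 13 whose name was a date. These were left out, with 0.0458% to 0.0506% of the counts of a library, and 0 columns belonged to other samples. Libraries were grouped by their labels.

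Low genes were removed with filterByExpr. Scaling was by TMM, and edgeR 4.0.16 (R 4.3.3) fitted all 6 libraries at once with its quasi-likelihood method. Tests were two-sided, with Benjamini-Hochberg adjustment over 14053 genes (FDR, threshold 0.05). With 2 libraries per group, p-values measure the spread between these libraries, which is shared across genes. Positions and transcript lengths came from GENCODE on GRCh37. The fit was tested on simulated data in which a gene had the same dispersion in every group and the genes from RANGAP1 to Y were left out. Unequal spread between groups and the near-missing counts of replicate 2 of siTAZ #1 were thus not covered. Alternatives were DESeq2 1.42.0, the exact test or the main model on the 4 libraries compared, scaling by RLE, by upper quartile or by library totals, no filter, a minimum mean count of 50, the replicate number as a block, the omission of each library or of the genes from RANGAP1 to Y, and an FDR of 0.1. Added after seeing the data were a crossed block, that omission combined with the block or the exact test, and offsets for GC content and transcript length. Of each pathway list, up to 4 genes with the lowest FDR against siNTC are named for each siRNA, together with all 10 members and the 3 genes most like NFE2L2. Members, lists and tests were chosen with earlier results of these data known.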

Additional observations from a re-analysis of the deposited data

Results flagged for a closer look

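The effect against siNTC differed between the siRNAs for 5 of the 10 genes by the direct test of siTAZ #1 against siTAZ #2 in edgeR's quasi-likelihood fit, against 28.6% of all genes tested. SQSTM1 was lower with siTAZ #1, by a log2 difference of −1.88 (FDR = 0.000572), and GCLC was lower, by −1.24 (FDR = 0.00805). TXN was higher with siTAZ #1 by 1.28 (FDR = 0.00838), GCLM by 0.72 (FDR = 0.0346) and SRXN1 by 0.45 (FDR = 0.0283). The libraries of siTAZ #1 and siTAZ #2 did not overlap for the members that were not called either, so a lack of overlap does not set the 5 apart. How often this holds over all genes was not examined, so it is not read as a trait of the members. SQSTM1 and TXN passed under all 21 alternatives, GCLC under 20 of 21, and GCLM and SRXN1 under 14 each.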

How the results depend on the processing

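Where a library was left out, the other of its group was assumed to vary like the other groups. With siTAZ #1, 3 members fell, but 1 (SQSTM1) in the exact test on 4 libraries, 4 (GCLC added) with DESeq2, at an FDR of 0.1 and without the genes from RANGAP1 to Y alone or with the replicate block or the exact test, and between 1 and 4 with a library left out. None rose with siTAZ #1, but 1 did (GCLM) with DESeq2, at an FDR of 0.1, without the genes from RANGAP1 to Y alone or with the replicate block or the exact test, with the crossed replicate block and with GC offsets, and between 0 and 2 with a library left out. With siTAZ #2, 5 fell, but 4 (TXNRD1 lost) with library totals, GC offsets and the replicate block, alone or without the genes from RANGAP1 to Y, and between 1 and 5 with a library left out. None rose, but 1 did (GCLC) with DESeq2, the exact test, the fit of 4 libraries, an FDR of 0.1, GC offsets and without the genes from RANGAP1 to Y alone or with the replicate block or the exact test, and between 0 and 1 with a library left out. In the direct comparison, 2 were lower, and between 1 and 3 with a library left out. There 3 were higher, but 1 (TXN) in the exact test, the fit of 4 libraries and the replicate block, and between 1 and 3 with a library left out. Counts over all genes moved as well, also with a library left out, so counts of members do not describe the members alone. No share of all genes at an FDR of 0.1 is given. Lower with siTAZ #1 were 1374 of 14053, but 414 of 13710 in the exact test and 1858 with DESeq2. Higher with siTAZ #1 were 1515 of 14053, but 2076 with DESeq2, 1588 with GC offsets and 1368 with the crossed block. Without the genes from RANGAP1 to Y, 1999 of 13457 fell and 2115 rose with siTAZ #1. With siTAZ #2, 2021 of 14053 were lower, but 1820 with library totals and 2217 with GC offsets. Higher with siTAZ #2 were 1983, and 2069 with GC offsets, 2407 with DESeq2 and 2624 of 13457 without the genes from RANGAP1 to Y. The exact test and the fit of 4 libraries gave 3259 and 3073 of 13754. Directly, 2137 of 14053 were higher, but 735 and 1499 of 13961 in these fits. The direct WWTR1 difference was −0.70 and lost in the exact test. The values that reversed had passed no test in the fit reported. KEAP1 with siTAZ #1 became 0.027 with library totals, 0.0023 at mean counts from 50 up, 0.0039 and 0.12 without siNTC replicate 1 or siTAZ #1 replicate 2, and 0.0096 with GC offsets. NFE2L2 with siTAZ #2 became 0.028 with library totals, ran from −0.092 to 0.024 with a library left out (0.0077 without siTAZ #2 replicate 2), and became 0.050 with GC offsets, which also gave −0.0018 for NFE2L2 between the siRNAs, −0.0021 for TXN and −0.14 for SLC7A11 with siTAZ #1. GCLM with siTAZ #2 ran from −0.20 to 0.044 with a library left out (0.0084 without siNTC replicate 1). The cause was not tested.

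Same-numbered replicates did not deviate together (Pearson r of −0.01, 0.02 and −0.29 between pairs of groups over 11530 genes), so the numbers were not taken as pairs. The −0.29 was between siTAZ #1 and siTAZ #2, where replicates of unlike number thus tended to deviate together. The crossed block swaps the numbers of siTAZ #1 for this reason, and the cause was not tested. With the replicate block, 823 genes fell and 868 rose with siTAZ #1 (1374 and 1515 without it), and 1420 and 1329 with siTAZ #2 (2021 and 1983). TXNRD1 with siTAZ #2 then had an FDR of 0.0776, and NFE2L3 with siTAZ #2, GSK3B, UGDH and GABARAP with siTAZ #1 and GABARAPL2 with both lost their calls too (FDR from 0.0604 to 0.0955). The crossed replicate block gave 1244 and 1368, and 1893 and 1857. Leaving out replicate 1 or 2 of siNTC gave 302 and 283, or 277 and 279, with siTAZ #1, leaving out replicate 1 of siTAZ #1 gave 2604 and 2496, and leaving out the genes from RANGAP1 to Y gave 1999 and 2115. The exact test on 4 libraries called 414 and 497 genes with siTAZ #1 but 3163 and 3259 with siTAZ #2. DESeq2 called 1858 and 2076, and 2535 and 2407.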
